A study of Mus musculus with 6 samples.

Results

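Splicing factors were examined in leukemic myeloid cells of Mll-AF9 mice with and without Rpl22. The 42 genes were given by name and comprised 12 SR proteins, 12 hnRNPs, 4 factors of the core spliceosome or of U2-type splice site recognition, 9 other RNA-binding regulators, 2 SR-related coactivators and 3 kinases of SR proteins. All 42 were among the 16656 genes that could be tested, of 29347 genes with a read. They carried 506 annotated transcripts, of which 336 were abundant enough to be tested among 47498 transcripts of all genes.

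The RNA came from CD11b+Gr1+ splenocytes, which the study sorted from tumor-bearing mice of 2 genotypes, Rpl22+/+ (3 libraries) and Rpl22-/- (3 libraries). All mice carried Mll-AF9, a knockin fusion oncogene that causes acute myeloid leukemia, and the Rpl22-/- mice lacked in the germline the gene of a protein of the large ribosomal subunit. The labels give no age or sex. The methods describe the study's Rpl22+/+, Rpl22-/- and Alox12-/- mice as young adults, and give no separate age for the tumor-bearing donors. The labels do not say that each library stands for its own mouse. A caption in the study gives a single animal identifier for each genotype, and another calls the samples triplicates, so the 3 libraries may come from 1 animal per genotype. The p-values below then measure the spread between libraries, which may be technical.

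SR proteins bind exons through RNA recognition motifs and use domains rich in arginine and serine to recruit the spliceosome, while hnRNPs bind pre-mRNA and often oppose the use of an exon. The CLK and SRPK kinases phosphorylate SR proteins and set their position in the nucleus and their activity. Many of these genes regulate their own mRNA: they include a "poison" exon with a premature stop codon, or retain an intron, which yields a transcript that is degraded by nonsense-mediated decay or stays in the nucleus. For these genes the sum of reads and the amount of coding mRNA can therefore differ, and both were measured here.

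Poison exons carried a large part of the transcripts of several SR proteins and are shown as examples of the non-coding isoforms measured here, although none of them differed between genotypes past the threshold. They were taken by a fixed rule from the transcripts of the 12 SR protein genes annotated as targets of nonsense-mediated decay: internal exons that overlap no exon of a coding transcript, hold the stop codon and belong to a transcript with a mean share of at least 5% of its gene. The rule found 6. Each is printed in the sense of the transcript from its first base to the premature stop codon, which is in capitals; the sequences are those of GENCODE vM21 transcripts, an annotation of the GRCm38 build.
Tra2a-202 exon 2: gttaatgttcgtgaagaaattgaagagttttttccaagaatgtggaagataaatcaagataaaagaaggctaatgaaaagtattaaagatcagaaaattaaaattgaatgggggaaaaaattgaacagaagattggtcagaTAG
Tra2b-206 exon 2: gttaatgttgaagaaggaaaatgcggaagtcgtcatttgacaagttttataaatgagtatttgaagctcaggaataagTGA
Srsf3-201 exon 4: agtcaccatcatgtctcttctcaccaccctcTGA
Srsf7-203 exon 4: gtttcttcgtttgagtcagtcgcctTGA
Srsf4-203 exon 2: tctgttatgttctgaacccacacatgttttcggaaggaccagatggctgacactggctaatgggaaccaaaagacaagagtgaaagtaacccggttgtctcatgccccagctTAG
Srsf11-206 exon 4: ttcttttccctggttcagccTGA

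The Tra2a and Tra2b exons, from paralogous genes, are 306 and 276 nucleotides long and begin with the same 9 bases. The Srsf3 and Srsf7 exons are 456 and 460 nucleotides long, and their stop codons end 34 and 28 bases after the start of the exon. In Srsf4-203 and Srsf11-206 the exons are 207 and 109 nucleotides long. In all 6 transcripts the stop codon lies upstream of several exon junctions, from 3 in Srsf3-201 to 8 in Tra2b-206, which is the arrangement that nonsense-mediated decay acts on. On the GRCm39 build, Tra2a lies on the minus strand at chr6:49220858-49240967, Tra2b on the minus strand at chr16:22063299-22084755, Srsf3 on the plus strand at chr17:29251602-29262347 and Srsf7 on the minus strand at chr17:80507509-80514736.

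Rpl22 fell to 58.3 to 89.9 CPM in the Rpl22-/- libraries from 148 to 235 CPM in the Rpl22+/+ libraries, and its paralog Rpl22l1 rose from 51.5 to 69.1 CPM to 83.4 to 118 CPM (edgeR quasi-likelihood test, adjusted p = 0.0106 and 0.0263). The direction for Rpl22 is that of the labels, but the libraries labelled Rpl22-/- kept Rpl22 reads, with a mean of 73.9 CPM against 178 CPM, and the source of these reads was not tested. CPM are read counts scaled to a common library size, after scaling for library composition. Depth ranged from 35828500 to 102866127 estimated reads. Of the 4 genes of the sorted antigens, 2 were lower in Rpl22-/- and 0 higher: Itgam (CD11b) was at 1838 to 2085 CPM in Rpl22+/+ against 815 to 1036 CPM, and Ly6g (Gr1) at 149 to 178 CPM against 11.1 to 15.7 CPM. The other Gr1 antigen genes did not pass, with Ly6c2 at 768 to 1280 CPM against 1186 to 1678 CPM and Ly6c1 at 7.68 to 13.0 CPM against 9.73 to 17.7 CPM. Granule genes differed between genotypes. All 4 primary granule genes were higher in Rpl22-/- (summed level 2305 to 3970 CPM against 22041 to 26845 CPM). All 7 secondary and tertiary granule genes were lower (42895 to 57972 CPM against 11595 to 15903 CPM). Of other cells, 6 of 6 erythroid genes were higher (84.4 to 127 CPM against 579 to 1151 CPM), 6 of 6 T cell genes were lower (41.0 to 55.5 CPM against 15.6 to 18.0 CPM) and 2 of 6 B cell genes were lower (788 to 1000 CPM against 501 to 734 CPM). Of the platelet genes 3 could be tested and of the stroma genes 3, and 0 of these passed by edgeR; the summed levels were 3.17 to 5.13 CPM and 3.97 to 4.62 CPM for platelets, with Pf4 and Ppbp near 0, and 59.7 to 71.2 CPM and 74.3 to 94.9 CPM for stroma, in which Pecam1 held most of the reads and Col1a2 and Col3a1 were near 0. The part of these differences in the results below was not tested, and in such bulk samples a change in the cells present cannot be told apart from a change within each cell.

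The first question was whether the level of the splicing factors differed between genotypes. Of the 42 genes, 7 were higher in Rpl22-/- (Srsf4, Srsf6, Srsf7, Tra2b, U2af1, Tardbp and Srpk1), by 1.38-fold to 1.80-fold, and 0 were lower (edgeR, adjusted p under 0.05 over all genes). The 7 were 16.7% of the members, against 13.7% of all genes tested that were higher and 13.8% that were lower. No member was also past a fold of 2, whereas 8.93% of all genes were higher and 8.54% were lower by that measure. At an unadjusted p under 0.05, 13 members were higher and 0 lower, beside 20% and 19% of all genes. With DESeq2 the counts were 8 and 0 (14.9% and 16.6% of all genes), and with limma-voom 7 and 0 (14.3% and 13.8%). In 18 members every Rpl22-/- library lay above every Rpl22+/+ library (42.9%; 23.9% of all genes), and in 0 the reverse held (22.2% of all genes). The median log2 fold change of the members was 0.30, beside 0.066 over all genes tested. Over all genes, 2288 were higher and 2306 lower. With no composition factor in the scaling the split was 3543 and 2222, and 12 members were higher and 0 lower. With limma on TPM it was 3216 and 2115, and 10 members were higher and 0 lower. With the replicate number as a block, 11 members were higher and 0 lower (17.7% and 16.1% of all genes).

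**Figure D1:**
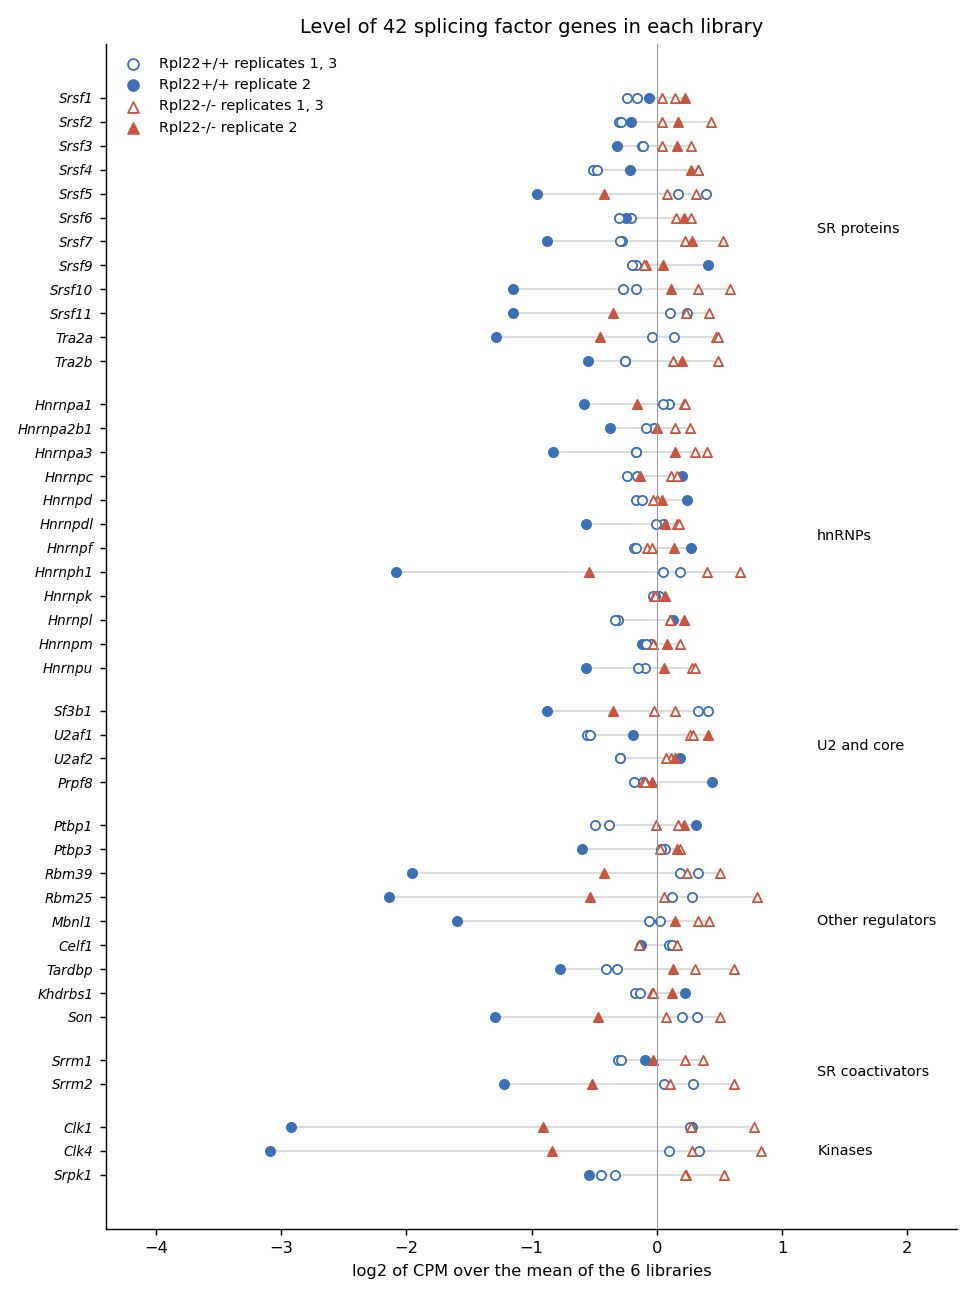
Level of the 42 splicing factor genes in each of the 6 libraries, as log2 of CPM over the mean of the 6 libraries (x axis) for each gene (y axis), grouped by role; circles are Rpl22+/+ and triangles Rpl22-/-, and filled symbols are replicate 2. The filled circle of Rpl22+/+ replicate 2 is the lowest point in 25 of 42 genes, with Clk4 and Clk1 farthest to the left.

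Among the SR proteins, 4 of 12 rose, where 13.7% of all genes did. Of these 4, Srsf6, Srsf7 and Tra2b no longer passed when any 1 of the Rpl22-/- libraries was left out, all 4 lost the call without Rpl22+/+ replicate 3, and Srsf6 and Tra2b also without Rpl22+/+ replicate 1. Srsf4, which lies at chr4:131600928-131629017, was at 93.6, 115 and 95.6 CPM in Rpl22+/+ and at 168, 161 and 168 CPM in Rpl22-/- (log2 fold change 0.71, SE 0.13, adjusted p = 0.00951). The 3 Rpl22-/- libraries were alike and all lay above the Rpl22+/+ libraries. Srsf7, a shuttling SR protein with a zinc knuckle, was at 165, 109 and 163 CPM in Rpl22+/+ and at 233, 242 and 288 CPM in Rpl22-/- (log2 fold change 0.81, SE 0.20, adjusted p = 0.0260). Tra2b, which binds purine-rich exonic enhancers, was at 166, 135 and 166 CPM against 216, 228 and 278 CPM (log2 fold change 0.63, SE 0.16, adjusted p = 0.0288). For both genes Rpl22+/+ replicate 2 was the lowest of the 6 libraries, and the groups did not overlap. Srsf6, named after its values were seen because it is the remaining one of the 7, was at 203 to 217 CPM in Rpl22+/+ and 279 to 303 CPM in Rpl22-/- (log2 fold change 0.47, SE 0.12, adjusted p = 0.0288).

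Srsf2, a nuclear SR protein mutated in myeloid neoplasms, lay just outside the threshold, at 344, 368 and 347 CPM against 436, 476 and 573 CPM (log2 fold change 0.49, SE 0.15, adjusted p = 0.0535). The groups did not overlap, and Srsf2 passed with DESeq2 (adjusted p = 0.0298) and on the reads of its coding transcripts alone (0.0287), in an adjusted p range over all alternatives of 0.0139 to 0.380. Srsf3, a small SR protein that also acts in mRNA export, was at 292, 253 and 294 CPM against 325, 355 and 382 CPM (adjusted p = 0.118) and passed in 0 of 17 alternatives. Srsf5 was at 437, 171 and 374 CPM against 351, 248 and 413 CPM (log2 fold change 0.044, SE 0.37, adjusted p = 0.950). In Srsf5 the libraries of replicate 2 were the lowest of both genotypes, and the groups overlapped throughout. The log2 fold changes of the other SR proteins lay between -0.086 for Srsf9 and 0.82 for Srsf10, and none of them passed with genotype as the only term. With the replicate number as a block, Srsf10 and Tra2a were higher, beside 17.7% of all genes.

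Of the 12 hnRNPs, 0 passed in either direction by edgeR, although all 12 had a positive log2 fold change, from 0.0063 for Hnrnpd to 0.64 for Hnrnpa3 (median 0.25), beside 54.2% of all genes with a positive value. Without Rpl22+/+ replicate 2, 10 of 12 were positive (52.3% of all genes), the median was 0.12, and Hnrnpa3 and Hnrnpl were higher (16.7% of the hnRNPs, against 20.7% of all genes). With the replicate number as a block, Hnrnpa3 and Hnrnpu were higher (17.7% of all genes were higher and 16.1% lower), as were Srsf10 and Tra2a among the SR proteins. Without replicate 2 of both genotypes, Hnrnpa3, Hnrnpl and Hnrnpu were higher (25%, against 20.6% of all genes). Hnrnpdl, an hnRNP D paralog known to regulate its own splicing, was at 202, 132 and 195 CPM in Rpl22+/+ and 218, 204 and 221 CPM in Rpl22-/- (log2 fold change 0.28, SE 0.19, adjusted p = 0.329). Without the low Rpl22+/+ replicate 2, its log2 fold change was 0.062. The steadiest of the 12, chosen after the values were seen, was Hnrnpk, a poly(C)-binding protein, at 563 to 579 CPM in Rpl22+/+ and 563 to 600 CPM in Rpl22-/-.

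Among the 4 factors of the core spliceosome and of the splice site, U2af1 rose and the other 3 did not pass with all libraries. U2af1, the small subunit of the U2 auxiliary factor that contacts the AG at the end of an intron and is mutated in myeloid neoplasms, lies at chr17:31866055-31877866. It was at 76.4, 98.3 and 77.6 CPM in Rpl22+/+ and at 135, 149 and 137 CPM in Rpl22-/- (log2 fold change 0.74, SE 0.15, adjusted p = 0.0121). It did not pass by edgeR without Rpl22+/+ replicate 1 or 3 (adjusted p = 0.0544 and 0.0670). Its partner U2af2 was at 254, 354 and 254 CPM against 337, 344 and 329 CPM (log2 fold change 0.23, SE 0.17, adjusted p = 0.385), where Rpl22+/+ replicate 2 was the highest of the 6. Without that library U2af2 was higher (log2 fold change 0.36, edgeR adjusted p = 0.0358), beside 20.7% of all genes. It was also higher without replicate 2 of both genotypes (edgeR adjusted p = 0.0293), beside 20.6%. A difference between the subunits in their change with genotype was not tested. Sf3b1, of the U2 snRNP, and Prpf8, at the catalytic core, had log2 fold changes of -0.12 and -0.16 (adjusted p = 0.831 and 0.618).

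Of the other 9 regulators, Tardbp rose. Tardbp encodes TDP-43, which binds UG-rich RNA and represses cryptic exons, and lies at chr4:148696839-148711476. It was at 184, 135 and 174 CPM in Rpl22+/+ and at 351, 251 and 284 CPM in Rpl22-/-, the largest fold of the 7 at 1.80 (log2 fold change 0.85, SE 0.19, adjusted p = 0.0179). It did not pass by edgeR without Rpl22+/+ replicate 3 or without Rpl22-/- replicate 1 or 3 (adjusted p = 0.0620, 0.0601 and 0.0564). Replicate 2 was the lowest of each genotype, and the groups did not overlap. The others ranged from -0.069 for Celf1 to 0.68 for Mbnl1. The 2 coactivators, Srrm1 and Srrm2, had log2 fold changes of 0.43 and 0.29 (adjusted p = 0.0873 and 0.681). Without Rpl22+/+ replicate 2 these were 0.44 and -0.099, and that of Mbnl1 was 0.27. Srrm1 was then higher (edgeR adjusted p = 0.0321), beside 20.7% of all genes.

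Of the 3 kinases, Srpk1 rose. Srpk1, which phosphorylates SR proteins in the cytoplasm, lies at chr17:28806622-28841683 and was at 82.0, 70.8 and 76 CPM in Rpl22+/+ and at 149, 121 and 121 CPM in Rpl22-/- (log2 fold change 0.77, SE 0.14, adjusted p = 0.00900). It was the member with the smallest p-value. The nuclear kinases Clk1 and Clk4 showed the widest spread of all members. Clk1 was at 207, 22.5 and 204 CPM in Rpl22+/+ and at 206, 90.6 and 292 CPM in Rpl22-/- (log2 fold change 0.44, SE 0.79, adjusted p = 0.736). Clk4 was at 86.2, 8.0 and 73.0 CPM against 121, 38.1 and 82.6 CPM (log2 fold change 0.53, SE 0.81, adjusted p = 0.684). In both kinases the 2 libraries numbered 2 were the lowest of their genotype, and the spread within a genotype was larger than the difference between genotypes.

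**Figure D2:**
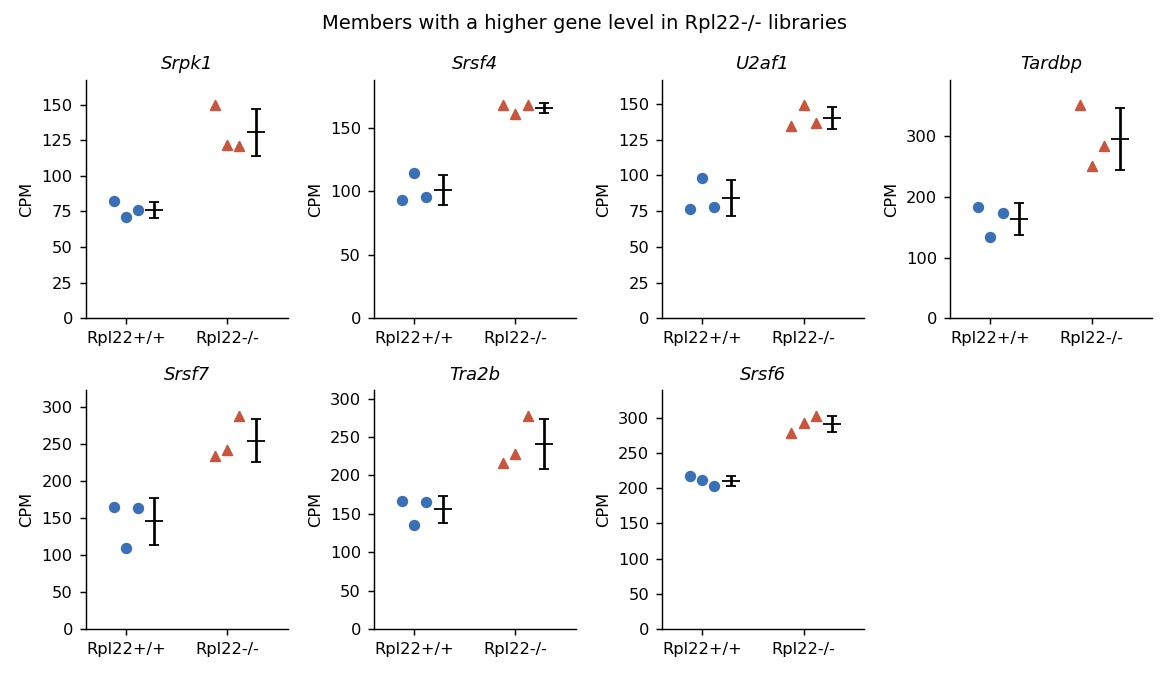
CPM (y axis, from 0) of the 7 members that passed the test in the 3 libraries of each genotype (points), with the mean and SD beside them. In each panel all Rpl22-/- points lie above all Rpl22+/+ points, with Tardbp at a fold of 1.80 and Srsf6 at 1.38.

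Tardbp and Srsf4 lie on chromosome 4, as does Rpl22 itself (chr4:152410199-152418528). Of the 832 tested genes with a position on chromosome 4, 33.4% were higher in Rpl22-/- (median log2 fold change 0.44), against 13.3% of those on other chromosomes (median 0.020). The 6 members on chromosome 4 had a median log2 fold change of 0.57 and 2 were higher; among the 36 members elsewhere the median was 0.30 and 5 were higher. The part of this in the rise of Tardbp and Srsf4 was not tested.

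The number of members that passed depended on the libraries used. Without Rpl22+/+ replicate 1 or 3 it was 4 and 1, beside 8.06% and 6.76% of all genes higher. Without Rpl22-/- replicate 1, 2 or 3 it was 3, 5 and 3, beside 8.68%, 9.55% and 8.11%. Srpk1 passed with any 1 of the 6 libraries left out, and it was the member left without Rpl22+/+ replicate 3. Without replicate 2 of both genotypes, 15 members were higher (20.6% of all genes) and Sf3b1 was lower (20.9% of all genes). Without Rpl22+/+ replicate 2, 14 members were higher (20.7% of all genes were) and Sf3b1 was lower (log2 fold change -0.49, adjusted p = 0.0375; 19.3% of all genes were lower), and the median of the members was 0.13.

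Reads of coding and of non-coding transcripts were then tested apart, since a gene sum mixes them. Coding means transcripts annotated as protein coding; all others (retained introns, targets of nonsense-mediated decay and transcripts without a reading frame) were taken as non-coding. On the reads of coding transcripts, 6 members were higher (Srsf2, Srsf4, Srsf7, Tra2b, U2af1 and Tardbp) and 0 lower, beside 16.8% of all genes higher and 16.9% lower. On the reads of non-coding transcripts, 0 of 40 members passed by edgeR, beside 3.34% of all genes higher and 3.8% lower. At an unadjusted p under 0.05 there were 4, beside 21% of all genes.

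Srpk1, the member with the smallest p on all reads, did not pass on either class alone. Its log2 fold change was 0.77 on all reads, 0.19 on coding reads (edgeR adjusted p = 0.471) and 0.72 on non-coding reads (adjusted p = 0.104). Each fit was scaled to its own reads, so these values are not on a common scale. In TPM, which are abundances scaled for transcript length, its coding transcripts were at 17.6, 17.1 and 16.9 in Rpl22+/+ and 23.9, 21.1 and 23.7 in Rpl22-/-, and its non-coding transcripts at 32.9, 20.6 and 31.9 against 64.5, 48.6 and 48.8. In all 6 libraries the non-coding transcripts of Srpk1 summed to more TPM than the coding ones. In U2af1 the coding transcripts held more TPM than the non-coding ones, with coding transcripts at 108, 124 and 106 TPM in Rpl22+/+ and 202, 204 and 187 TPM in Rpl22-/- (log2 fold change of coding reads 0.71, adjusted p = 0.0154).

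The share of each transcript within its gene showed no difference between genotypes that passed the test. Of 336 member transcripts, 0 had an adjusted p under 0.05 (limma on the log2 odds of the share), beside 0.657% of all transcripts tested. With a difference of 5 percentage points or more also required, the count was again 0, beside 0.259% of all transcripts tested that were higher and 0.299% that were lower. At an unadjusted p under 0.05 there were 28 (8.33%, against 11.3% of all), of which 12 were higher and 16 lower in Rpl22-/-. With edgeR's diffSpliceDGE 1 member transcript passed at any size (Hnrnpa3-201; 0.661% of all transcripts) and 0 by 5 points (0.438% of all). In 20 transcripts (5.95%; 8.78% of all) the groups did not overlap and their means differed by at least 5 points.

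The transcripts with the 5 smallest p-values, chosen after their values were seen, are described without being called. Hnrnpf-210, a coding transcript of a G-tract-binding hnRNP, made up 7.64%, 8.35% and 9.90% of the gene in Rpl22+/+ and 19.3%, 17.8% and 15.6% in Rpl22-/- (log2 odds ratio 1.18, SE 0.24, limma adjusted p = 0.139). With a pseudocount of 1 TPM it had an adjusted p of 0.0272 and was then the only member transcript to pass, beside 1.83% of all transcripts. Clk4-209, a retained-intron transcript, made up 2.90%, 1.20% and 3.58% of Clk4 in Rpl22+/+ and 6.37%, 7.64% and 6.12% in Rpl22-/- (limma adjusted p = 0.236). Hnrnpa2b1-210, a coding transcript, made up 6.30%, 11.4% and 9.02% against 0.949%, 4.02% and 2.05% (limma adjusted p = 0.246). In both the genotypes did not overlap. Hnrnpl-213, annotated as a target of nonsense-mediated decay, made up 2.88%, 2.09% and 3.35% against 5.71%, 5.91% and 7.20% (limma adjusted p = 0.249). Prpf8 was divided between 2 coding transcripts: Prpf8-202 held 37.9%, 38.1% and 42.8% in Rpl22+/+ and 51.8%, 47.5% and 48.9% in Rpl22-/- (limma adjusted p = 0.295), with Prpf8-201 as its mirror image.

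Several coding transcripts of the genes followed whatever their values were among the 28, none of them past the adjusted threshold. Clk4-201 held 35.3%, 52.1% and 41.2% in Rpl22+/+ against 19.9%, 30.8% and 29.7% (limma adjusted p = 0.338). Clk4-202, a further coding transcript of the gene, had the opposite sign, at 8.30%, 0% and 2.69% against 16.7%, 8.599% and 9.38% (limma adjusted p = 0.394). Clk1-201 held 34.5%, 39.2% and 43.6% against 30.0%, 30.6% and 32.8% (limma adjusted p = 0.416). Of the 28 transcripts with an unadjusted p under 0.05, 18 were coding (64.3%), with 14 of these lower in Rpl22-/- (77.8%). Over all transcripts tested at that threshold 59% were coding, of which 60.1% were lower. Srsf5-203, a coding transcript, held 18.4%, 24.8% and 19.1% against 9.74%, 16.2% and 9.18%, and the retained-intron transcript Srsf5-212 held 4.52%, 1.07% and 6.76% against 13.9%, 7.13% and 15.5% (limma adjusted p = 0.334 and 0.414). Hnrnpdl-202 held 27.4%, 36.7% and 27.8% against 23.3%, 22.6% and 17.3% (limma adjusted p = 0.374).

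The poison-exon transcripts printed above were abundant in both genotypes. Tra2a-202 held 35.5%, 3.37% and 35.8% of Tra2a in Rpl22+/+ and 32.3%, 11.7% and 37.2% in Rpl22-/- (limma adjusted p = 0.877). Tra2b-206 held 23.5%, 11.9% and 25.5% of Tra2b against 21.9%, 19.9% and 32.4% (limma adjusted p = 0.759). In both genes the low values were those of the 2 libraries numbered 2, and the genotypes overlapped. Srsf3-201 held 17.6%, 11.1% and 19.3% against 16.7%, 17.3% and 23.8%, and Srsf7-203 held 12.4%, 4.35% and 11.4% against 11.2%, 9.27% and 12.4%, with Rpl22+/+ replicate 2 the lowest of the 6 in both. Srsf4-203 held 5.52% to 10.2% in all libraries. Srsf11-206 was the exception among the 6, since its share was highest, at 8.11%, in Rpl22+/+ replicate 2.

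**Figure D3:**
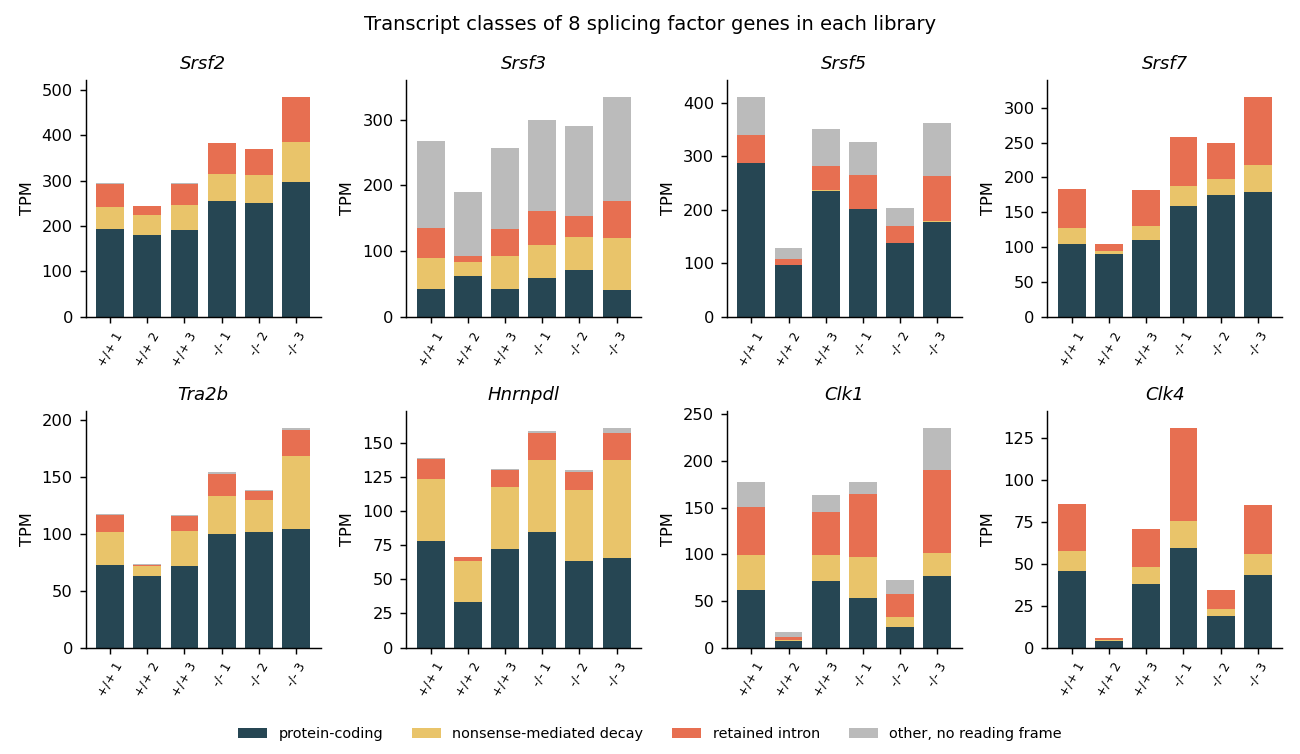
TPM (y axis, from 0) of 8 splicing factor genes in each library (x axis), divided into coding transcripts, targets of nonsense-mediated decay, retained-intron transcripts and other transcripts without a reading frame. Clk1 and Clk4 are lowest in Rpl22+/+ replicate 2 in all classes, whereas in Srsf7 and Tra2b the coding part of that library is close to that of replicates 1 and 3 and the non-coding part is smaller.

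Summed over classes, the non-coding share of the TPM of a gene could be tested in 39 members. It was 0% to 0.336% in every library for the other 3 (Hnrnpc, Hnrnpf and Prpf8). None of the 39 passed in either direction (limma, adjusted p under 0.05), 2 had an unadjusted p under 0.05 (5.13%, against 9.38% of 8173 genes), and of all genes 0.11% were higher and 0.159% lower. Khdrbs1, the RNA-binding protein Sam68, named after its values were seen, had the smallest p, with 10.3%, 5.58% and 11.1% in Rpl22+/+ and 19.1%, 13.2% and 17.0% in Rpl22-/- (log2 odds ratio 1.02, SE 0.41, limma adjusted p = 0.509). Clk1 followed, with 65.5%, 60.8% and 56.4% against 70.0%, 69.4% and 67.2% (log2 odds ratio 0.51, SE 0.21, limma adjusted p = 0.515). In 5 members all Rpl22-/- libraries lay above all Rpl22+/+ libraries (12.8%; 12% of all genes). In 1, Hnrnpu, all lay below (4.14% of all genes), at 85.3% to 86.1% against 86.9% to 87.6%.

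The same measure in the remaining genes that were followed whatever their values showed overlap of the genotypes. Srsf2 was at 34.5%, 26.2% and 34.8% against 33.4%, 32.2% and 38.6%, and Srsf3 at 84.1%, 67.3% and 83.7% against 80.2%, 75.7% and 87.8%. Srsf5 was at 30.2%, 25.4% and 32.8% against 38.3%, 32.2% and 51.1%, and Srsf7 at 43.1%, 13.9% and 40.1% against 38.3%, 29.7% and 43.3%. Tra2b was at 38.3%, 13.7% and 38.5% against 35.3%, 26.9% and 45.9%. Hnrnpdl was at 43.9%, 49.5% and 44.5% against 46.6%, 51.1% and 59.1%, and Clk4 at 46.3%, 34.0% and 46.1% against 54.6%, 44.2% and 49.3%. The limma adjusted p of these 7 genes ranged from 0.576 for Srsf5 to 0.875 for Srsf3.

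The largest differences in isoforms were between libraries of 1 genotype. The median non-coding share of the 39 members was 32.5%, 15.7% and 32.8% in Rpl22+/+ replicates 1 to 3 and 38.3%, 27.2% and 39.5% in Rpl22-/- replicates 1 to 3. Rpl22+/+ replicate 2 was the lowest of the 6 libraries in 36 of 39 members, beside 60.6% of all genes tested, and Rpl22-/- replicate 2 was the lowest of its genotype in 31 of 39, beside 53.6%. Over all genes the median was 17.8%, 9.997% and 17.1% in Rpl22+/+ and 20.2%, 15.0% and 17.5% in Rpl22-/-, with the same libraries the lowest. By class, the members' median share of retained-intron transcripts was 13.8%, 4.16% and 12.5% in Rpl22+/+ against 17.2%, 11.6% and 16.2% in Rpl22-/-. That of targets of nonsense-mediated decay was 9.17%, 4.27% and 10.3% against 10.7%, 8.92% and 10.4%. Rpl22+/+ replicate 2, with 88483406 estimated reads, was the deepest library of its genotype.

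**Figure D4:**
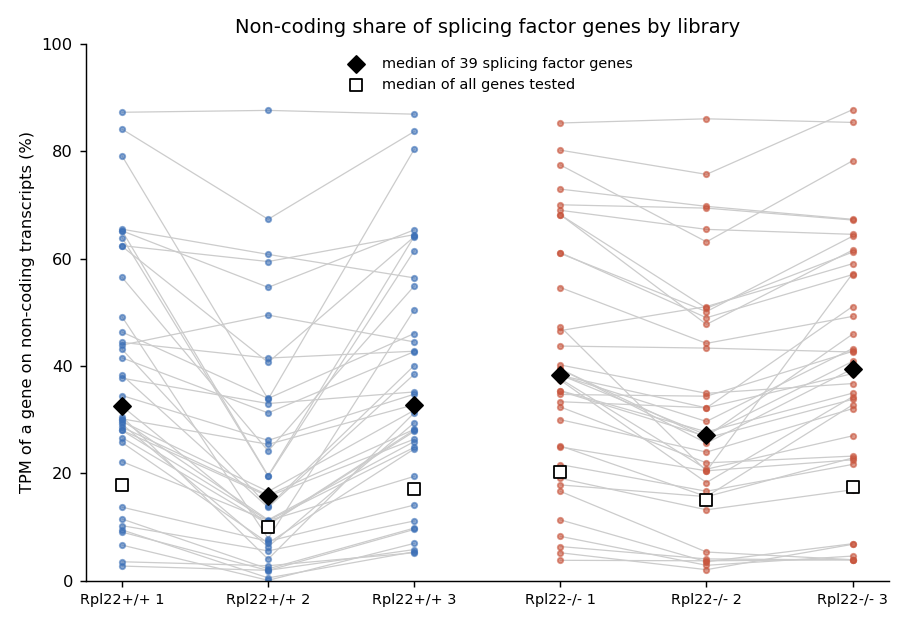
Share of the TPM of a gene on non-coding transcripts (y axis, percent) in each library (x axis) for 39 splicing factor genes (points, joined within a genotype), with their median (diamonds) and the median of all genes tested (squares). The members' median is 15.7% in Rpl22+/+ replicate 2 and 27.2% in Rpl22-/- replicate 2, below the other libraries of the same genotype.

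Levels followed the same libraries. Rpl22+/+ replicate 2 held the lowest CPM of the 6 libraries in 25 of 42 members, against 26.2% of all genes, and in 12 members it was lower than the mean of Rpl22+/+ replicates 1 and 3 by a factor of more than 2, against 17.3% of all genes. These 12, named after their values were seen, were Clk4, Clk1, Rbm25, Rbm39, Hnrnph1, Mbnl1, Son, Srrm2, Tra2a, Srsf11, Srsf5 and Sf3b1. The mean of replicates 1 and 3 was 9.95 times replicate 2 for Clk4, 9.15 times for Clk1, 5.08 times for Rbm25, a splicing regulator with a PWI domain, and 2.37 times for Sf3b1. In Rpl22-/- the same ratio was 2.68 for Clk4, 2.75 for Clk1, 2.01 for Rbm25 and 1.33 for Sf3b1. Other members were higher in that library, with a ratio of 0.598 for Ptbp1, the polypyrimidine tract-binding protein, and 0.664 for Srsf9.

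Non-coding transcripts differed more between these libraries than coding ones. Over the 39 members, the mean TPM of Rpl22+/+ replicates 1 and 3 was a median of 1.48 times replicate 2 for coding transcripts and 4.48 times for non-coding transcripts, and the second ratio was the larger in 37 of 39 members (82.5% of all genes; medians of all genes 1.02 and 1.86). In Rpl22-/- the medians were 1.14 and 1.90, and 36 of 39 members had the larger ratio for non-coding transcripts (77% of all genes). As examples chosen after their values were seen, Tra2a had 48.1, 28.9 and 40.2 TPM of coding and 46.6, 2.47 and 41.0 TPM of non-coding transcripts in Rpl22+/+. Son, a scaffold protein of nuclear speckles, had 83.9, 33.5 and 81.7 TPM of coding and 149, 8.11 and 130 TPM of non-coding transcripts. In Clk1 both classes were lower together, at 61.2, 6.55 and 71.4 TPM and 116, 10.2 and 92.5 TPM. In Hnrnpdl and Hnrnpu the ratio was the larger for coding transcripts, at 2.24 against 1.81 and 1.88 against 1.79. Tardbp had a non-coding share between 41.5% and 44.4% in all 6 libraries.

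Transcripts of genes outside the list moved with the same libraries. The nuclear long non-coding RNA Malat1, chosen after its values were seen, was at 775, 53.3 and 583 CPM in Rpl22+/+ and at 791, 311 and 867 CPM in Rpl22-/-. Neat1, the RNA of paraspeckles, also chosen after its values were seen, was at 147, 28.6 and 96.7 CPM and at 189, 65.5 and 99.2 CPM. In both RNAs replicate 2 was the lowest library of each genotype. What sets these libraries apart was not tested.

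The comparison of genotypes changed with that 1 library. With all libraries, 36 of 39 members had a higher non-coding share in Rpl22-/- (69.8% of all genes did), with a median log2 odds ratio of 0.50 against 0.24 over all genes. Without Rpl22+/+ replicate 2, 20 of 39 were higher and the median was 0.0027, against 0.0079 over all genes. Without replicate 2 of both genotypes, 26 of 39 were higher and the medians were 0.13 and 0.11. The log2 odds ratio of Clk1 was 0.51 with all libraries and 0.50 without Rpl22+/+ replicate 2, and that of Khdrbs1 was 1.02 and 0.69. Those of Tra2b (0.49 and -0.17), Srsf7 (0.43 and -0.29), Srsf3 (0.23 and -0.22) and Son (0.78 and -0.15) changed sign, and none of these values passed the test.

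**Figure D5:**
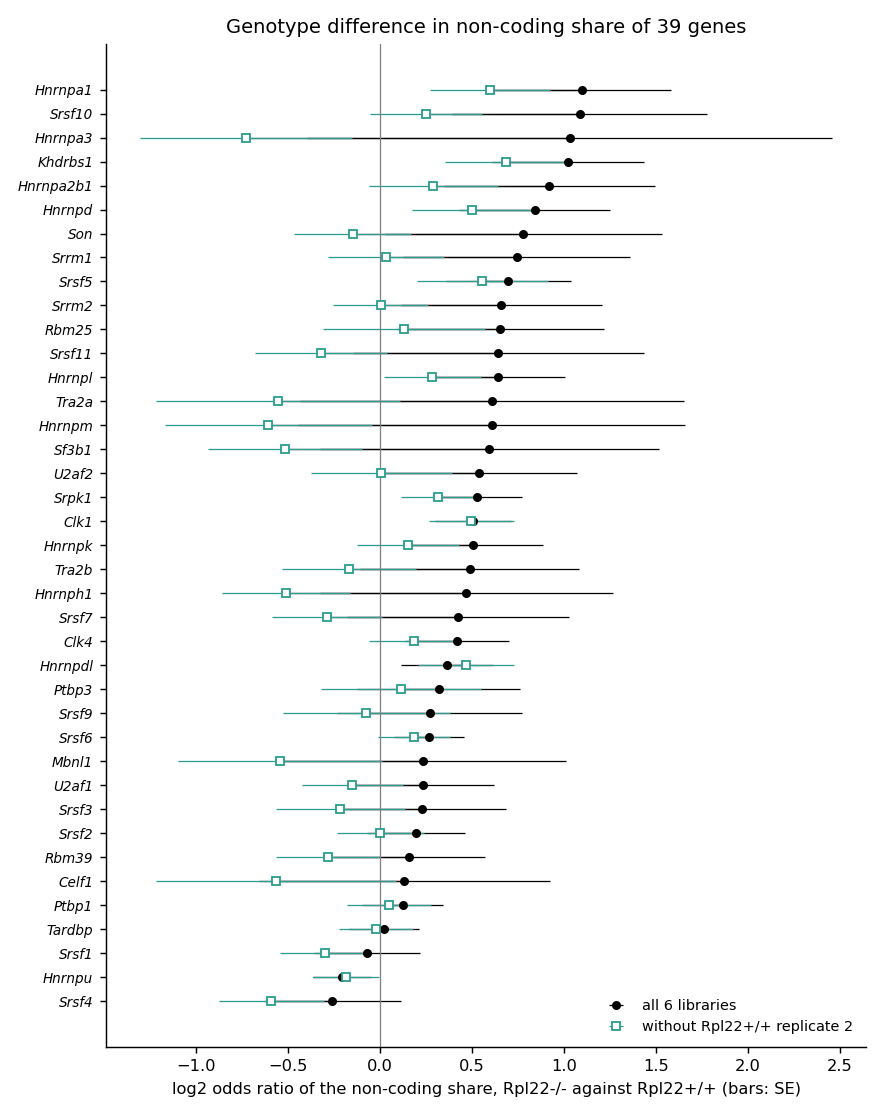
Log2 odds ratio of the non-coding share in Rpl22-/- against Rpl22+/+ (x axis, with SE bars) for 39 members (y axis), with all 6 libraries (black) and without Rpl22+/+ replicate 2 (open squares). With all libraries 36 values lie above 0, and without that library 20 do.

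Other splicing genes were taken from lists of general knowledge, chosen with earlier results of these data known. With all libraries, the share of higher genes in each list was below the 13.7% of all genes tested. When libraries were left out this changed for the spliceosome list, and for the hnRNP and regulator list without replicate 2 of both genotypes. Of 50 further spliceosome genes, 6 were higher and 0 lower (12% higher, median log2 fold change 0.073). Without Rpl22+/+ replicate 2, 13 were higher and 2 lower (26%, against 20.7% of all genes), and without replicate 2 of both genotypes 16 and 6 (32%, against 20.6%). Sf3a3, a subunit of SF3A in the U2 snRNP, was at 43.5, 45.7 and 43.7 CPM in Rpl22+/+ and 90.7, 94.9 and 82.9 CPM in Rpl22-/- (log2 fold change 1.02, SE 0.12, edgeR adjusted p = 0.00151). Snrpa1, also of the U2 snRNP, was at 27.8 to 31.2 CPM against 41.1 to 45.6 CPM (edgeR adjusted p = 0.0136). Of 38 tested hnRNPs and regulators outside the members, 4 were higher and 0 lower (median 0.17), led by Sfpq, a paraspeckle protein, at 337 to 353 CPM against 515 to 586 CPM (edgeR adjusted p = 0.00869) and Syncrip at 113 to 162 CPM against 255 to 289 CPM (edgeR adjusted p = 0.00968). Without Rpl22+/+ replicate 2 that list had 7 higher and 4 lower (18.4% higher, against 20.7% of all genes), and without replicate 2 of both genotypes 9 and 4 (23.7% higher, against 20.6% of all genes). Of 14 factors of nonsense-mediated decay, 1 was higher and 0 lower (median -0.024), and the counts were 2 and 1, and 2 and 3, in the same 2 fits. The gene higher with all libraries was Magoh, of the exon junction complex, at 36.4, 50.4 and 37.1 CPM in Rpl22+/+ and 73.9, 98.3 and 78.4 CPM in Rpl22-/- (log2 fold change 1.02, SE 0.19, edgeR adjusted p = 0.00899). The chromosomes of the genes named from these lists were not examined, and 33.4% of the tested genes on chromosome 4 were higher.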

How the data were processed

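The authors trimmed reads of poly(A)-selected, stranded paired-end libraries with Trimmomatic and quantified transcripts with Salmon; versions and the transcript set are not given in the sources used here. They deposited estimated counts and TPM per transcript and library. From a further table the authors deposited, a comparison of the genotypes, only gene positions (GRCm39) were used; its fold changes and p-values were not.

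Transcripts were paired with genes and types through GENCODE vM21 on identifiers without versions. Of 276623 transcripts, 136036 matched; the rest, with 1.86% to 2.04% of the reads, were left out. Estimated counts were summed to genes and rounded. Gene levels were tested with the quasi-likelihood test of edgeR 4.0.16 on TMM-scaled counts after filterByExpr, with genotype as the only term. Transcript shares (gene mean of at least 1 TPM, mean share of at least 1%) and non-coding shares (1% to 99%) were tested with limma 3.58.1 on log2 odds with a pseudocount of 0.1 TPM, without the depth of each share. Short transcripts weigh as much as long ones in TPM, and reads shared by overlapping isoforms were divided by Salmon. P-values were adjusted over all features by Benjamini-Hochberg, and the scripts were tested on simulated data. Alternatives were DESeq2 1.42.0 size factors and test, no composition factor, other filters, limma-voom, limma on log2(TPM + 1), other pseudocounts, diffSpliceDGE, shares of estimated counts, decay and retained-intron transcripts only, the replicate number as a block and each library left out. Omission of replicate 2 of both genotypes and the tests on coding or non-coding reads alone were chosen after seeing the data. The members, lists and tests were chosen with earlier results of these data known. Named are the 5 members with the smallest p per direction, called transcripts and up to 6 members called on non-coding share per direction. Also named are Srsf2, Srsf3, Srsf5, Srsf7, Tra2b, Hnrnpdl, Clk1, Clk4, Rpl22, Rpl22l1 and at most 2 genes of each list of other genes. Most further genes are marked as chosen after their values were seen or summarize a range. Some, such as U2af2, Sf3b1, Prpf8, Srrm1 and Srrm2, are in none of these groups and carry no such mark.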

Additional observations from a re-analysis of the deposited data

Results flagged for a closer look

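Transcripts that were paired with no gene held up to 2.04% of the reads of a library and entered no comparison. This was listed because it is signal outside the main measurement. Groups of 3 libraries were not screened for single outlying values for this list. Rpl22+/+ replicate 2 was compared with replicates 1 and 3 in the results above.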

How the results depend on the processing

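At gene level 7 members were higher. The count was 12 with no composition factor, 11 with the replicate number as a block, 0 on non-coding reads alone and 15 without replicate 2 of both genotypes, and 1 to 14 when 1 library was left out. The count of lower members, 0, became 0 to 1 when 1 library was left out and 1 without replicate 2 of both genotypes, in both cases Sf3b1. With no composition factor all genes tested had a median of 0.19 in place of 0.066 (log2), with 3543 genes higher and 2222 lower in place of 2288 and 2306. For transcript shares, 1 member transcript was higher with a pseudocount of 1 TPM. No member passed on non-coding share under the alternatives run. The cause of these changes was not tested.

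Replicate numbers were not taken to pair the libraries: the deviations of same-numbered libraries from their group means correlated at 0.48, 0.63 and 0.097 over all genes tested, so the third pair was not over 0.1. Over the 13202 genes with 50 or more reads on average they were 0.57, 0.71 and 0.13, all over 0.1, so this decision depends on the genes used. Libraries of unlike numbers correlated at up to 0.36 and 0.43 in these 2 sets, more than the third pair. With the replicate block, 11 members were higher (Srsf10, Tra2a, Hnrnpa3 and Hnrnpu in addition to the 7) and 0 lower, and 0 member transcripts and 0 non-coding shares passed.

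Some log2 values changed sign, none of them past the threshold. For the level of Srsf5 they were -0.010 with DESeq2 size factors, -0.011 with the filter of 50 reads, -0.010 with the DESeq2 test, -0.28 on coding reads, -0.16 without replicate 2 of both genotypes and -0.32 to 0.30 when 1 library was left out. With 1 library left out, the level of Clk1 was -0.13 to 0.78 and that of Clk4 -0.044 to 0.99, each lowest without Rpl22+/+ replicate 2. The non-coding share gave -0.22 to 0.49 for Srsf3, -0.29 to 0.83 for Srsf7 and -0.17 to 0.82 for Tra2b, lowest without the same library, and -0.052 for Srsf7 without replicate 2 of both genotypes. The deposited files give no error for the division of reads between isoforms, which limits the transcript results.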
